A study of Homo sapiens with 16 samples.

Results

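Caspases and gasdermins carry out programmed cell death, and 8 of their genes are described here: the inflammatory caspases CASP1 and CASP4, the initiator caspases CASP2 and CASP9, the executioner caspase CASP6, the gasdermins GSDMD and GSDME, and the inflammasome adaptor PYCARD. They were chosen by symbol, and all 8 were found among the 60669 genes of both deposited tables. RNA came from HMC3, an established human cell line labelled as microglial, grown with no treatment named in the labels. Each group was labelled either wild type (WT) or METTL3 KO. METTL3 encodes the catalytic subunit of the enzyme that writes N6-methyladenosine (m6A) on RNA, and the labels do not say how the knockout was made or how many clones it holds. There were 3 WT and 3 METTL3 KO libraries made after depletion of ribosomal RNA, and 5 of each made from polyadenylated RNA with Smart-seq2. The rRNA-depleted libraries have a value per library in TPM, a gene's share of a library's transcripts after division by gene length, and the poly(A) libraries are represented by the authors' deposited table of the comparison.

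Caspases are proteases that cut after aspartate. Initiators are switched on by assembly onto a scaffold and then cut executioners, which dismantle the cell in apoptosis. CASP9 is activated on the apoptosome, which APAF1 forms with cytochrome c, and CASP2 on the PIDDosome. CASP1 is activated by inflammasomes, which PYCARD joins to it, and CASP4 by bacterial lipopolysaccharide in the cytosol. Both cut GSDMD, whose freed amino-terminal part forms pores in the plasma membrane in pyroptosis, the lytic form of death, while GSDME is cut in apoptotic cells. Inflammasomes are best known from macrophages, to which microglia are related.

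Because METTL3 methylates adenosine, the transcripts were searched for GGACT, a common form of the sequence around m6A. The longest protein-coding transcript of each gene in GENCODE 29 on GRCh38 was read on its own strand, with no overlap between matches possible. CASP9 held 10 matches (2.24 per kb), GSDME 5 (1.93 per kb), CASP4 4 (1.85 per kb) and CASP2 5 (1.18 per kb). CASP6 (0.646 per kb), CASP1 (0.500 per kb) and GSDMD (0.401 per kb) held 1 match each, and PYCARD held 0. The median over 11768 protein-coding genes tested in the rRNA-depleted libraries was 0.927 per kb, with quartiles of 0.569 and 1.38, and 92.4% of them held a match. A match is a description of the letters and not a measured methylation site. The matches of CASP4, GSDME and CASP2, the genes called below that hold more than 1, are shown so that their place in each transcript can be seen, with 8 bases on each side, GGACT in capitals, and the position is that of the A counted from the start of the transcript.
CASP4, 5′ UTR, position 398: agtggacgGGACTcctgcctc
CASP4, 5′ UTR, position 432: gagctgctGGACTatgtaaaa
CASP4, coding, position 1420: gagggtctGGACTatagtgta
CASP4, coding, position 1807: gtggagaaGGACTtcattgct
GSDME, 5′ UTR, position 230: caggccttGGACTttcctggt
GSDME, coding, position 653: gtggagtcGGACTttgtgaaa
GSDME, coding, position 1037: gtcaccaaGGACTccaacgtg
GSDME, coding, position 1844: attctgaaGGACTctaaagtc
GSDME, coding, position 1887: ccctgaatGGACTctgtgctt
CASP2, 5′ UTR, position 92: cgggccggGGACTgggtggcc
CASP2, coding, position 1044: cgagtcacGGACTcctgcatc
CASP2, coding, position 1361: cctcaaagGGACTgccgccat
CASP2, 3′ UTR, position 1765: tgagtgtgGGACTccaggcca
CASP2, 3′ UTR, position 2922: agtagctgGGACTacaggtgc

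The depth recovered from the TPM values was 266157 to 487272 reads in the WT libraries and 512627 to 1267171 in the METTL3 KO libraries, so depth moved with the label, and its part in the results was not tested. Over 10120 genes with whole reads in both, METTL3 KO libraries 1 and 2 differed by no more than sampling noise (chi-square of 1.02 per degree of freedom, p = 0.065), though over all genes with a known length they differed by more (1.07 per degree of freedom, p = 1.99e-07). They were averaged and counted as 1 sample, leaving 3 WT and 2 METTL3 KO samples. Nothing in the labels says that the libraries came from separate cultures, so p-values measure only the spread between these samples. METTL3 mRNA was 29.4 ± 3.49 TPM (SD, n = 3) in WT libraries. In those labelled METTL3 KO it was 41.2 ± 2.21 TPM (SD, n = 2), higher by 0.48 on the log2 scale (limma SE 0.19, adjusted p 0.106). The exact permutation test, two-sided, gave 0.2, its smallest possible p. The authors' deposited table gave METTL3 a log2 change of 0.09 with an adjusted p of 0.654. METTL3 mRNA thus did not check the label, and every direction below is for libraries labelled METTL3 KO. Of 14 microglial marker genes 10 were listed at 0 in all 6 rRNA-depleted libraries (AIF1, TMEM119, P2RY12, CX3CR1, ITGAM, PTPRC, TYROBP, SPI1, C1QA and C1QB). The 14 summed to 47.0 to 67.3 TPM in WT and 65.4 to 90.6 TPM in METTL3 KO libraries. The 9 mesenchymal markers summed to 11650 to 14080 TPM in WT and 5624 to 5722 TPM in METTL3 KO libraries, with LUM listed at 0. This drop lay in COL1A1, at 9612 to 11990 TPM in WT and 749 to 865 TPM in METTL3 KO libraries. COL1A2 and PDGFRB were also lower in METTL3 KO libraries, whereas VIM, FN1 and THY1 were higher, and COL3A1 and DCN were near 0. Astrocyte markers summed to 1.31 to 5.62 TPM in WT and 3.86 to 4.03 TPM in METTL3 KO libraries. Neuronal markers summed to 3.20 to 4.67 TPM in WT and 11.6 to 13.8 TPM in METTL3 KO libraries. SNAP25 was at 0, 0 and 1.78 TPM in WT and 7.99, 9.79 and 9.62 TPM in METTL3 KO libraries 1 to 3. SYT1 was also higher, TUBB3 overlapped between the labels and RBFOX3 was listed at 0. The part of these differences in the results was not tested.

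In the rRNA-depleted libraries GSDMD fell and CASP2 rose, and these were the calls among the 5 of the 8 genes that passed the filter of 1 TPM in 3 libraries. CASP9, CASP6 and GSDME were tested and did not pass an adjusted p of 0.05, and CASP1, CASP4 and PYCARD were too low to be tested. Of all 14789 genes tested 35.3% were called, 22.9% as higher and 12.4% as lower in METTL3 KO, so a share of this size among the 8 is no result about them. Of the calls over all genes 64.8% were higher, and 48.6% with median ratio scaling. In bulk RNA, fewer cells expressing a gene and less of its RNA per cell cannot be told apart. In the poly(A) comparison the authors' deposited table called CASP4 higher and GSDME lower, among 7 of the 8 genes with an adjusted p. The background in the authors' deposited table was 19.9%, with 9.55% of 14009 genes higher and 10.3% lower. No gene of the 8 passed in both library types, in which 5 of the 8 and 12498 genes in all were tested, 10.6% of the latter passing in both.

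**Figure D1:**
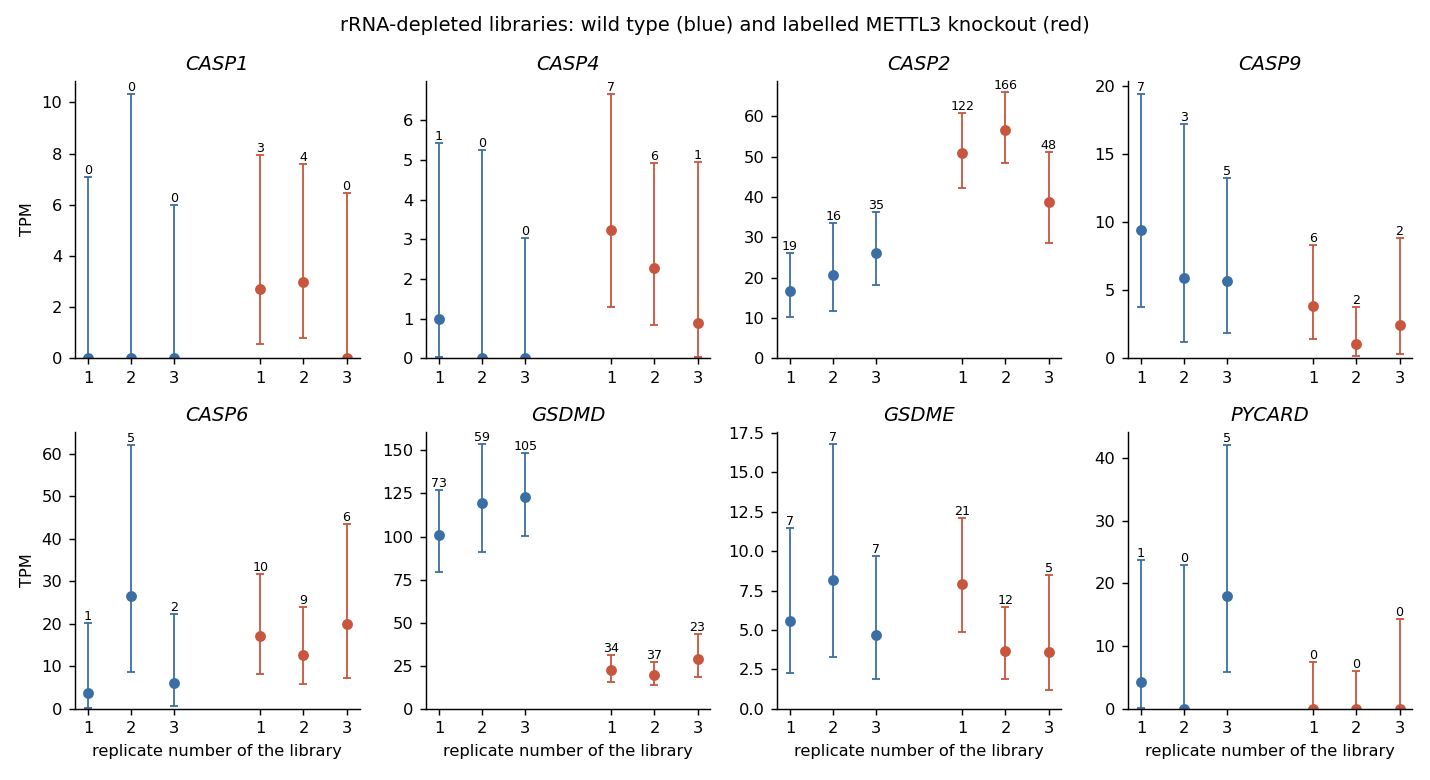
TPM of each of the 8 genes in the 6 rRNA-depleted libraries, WT in blue and labelled METTL3 KO in red, by replicate number. Bars are exact 95% Poisson intervals for counting error, and the number above each is its reads. GSDMD is high in all 3 WT libraries and low in all 3 METTL3 KO libraries, CASP2 shows the opposite order, and CASP1, CASP4 and PYCARD rest on 0 to 7 reads per library.

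GSDMD, the pore-forming substrate of CASP1 and CASP4, was the most abundant of the 8 genes in WT and had the largest log2 change among the 5 tested. GSDMD (ENSG00000104518, chromosome 8, 143553207 to 143563062, plus strand, GRCh38 as in GENCODE 29) stood at 101, 119 and 123 TPM in WT libraries 1 to 3 and at 22.3, 19.8 and 29.03 TPM in METTL3 KO libraries 1 to 3. The lowest WT library was thus above the highest METTL3 KO library, as was the case in one direction or the other for 58.4% of all genes tested. These levels came from 59 to 105 reads in WT and 23 to 37 reads in METTL3 KO libraries, and the exact 95% counting intervals reached down to 79.2 TPM in WT and up to 43.6 TPM in METTL3 KO.

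The mean of GSDMD was 114 ± 11.7 TPM (SD, n = 3) in WT and 25.04 ± 5.65 TPM (SD, n = 2) in METTL3 KO, a 4.57-fold difference. On the log2(TPM + 1) scale it fell by 2.16 (SE 0.19, limma adjusted p 0.00223), against a median change of 0.41 over all genes tested. Among the genes tested it ranked at the 90.3 to 92.4 percentile of levels in WT libraries and at the 51.7 to 64.2 percentile in METTL3 KO libraries. The call held when any 1 library was left out, with limma adjusted p between 0.00199 and 0.0145. GSDMD's longest transcript has a GC content of 64.8%, in the highest decile, whose 1467 genes had a median log2 change of -0.41, with 25.4% called lower. With the trend of level on GC content removed from each library, the log2 change of GSDMD was -1.32 (limma adjusted p 0.00553).

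The authors' deposited table gave GSDMD a mean normalized count of 16.5 over the poly(A) libraries and a log2 change of -0.43 (SE 0.28, adjusted p 0.316). The value is on the same side of 0 as in the rRNA-depleted libraries but did not pass. Whether the size of the change differs between the library types was not tested.

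GSDME, the gasdermin opened in apoptotic cells, stood at a far lower level in WT than GSDMD. GSDME (ENSG00000105928, chromosome 7, 24698351 to 24758113, minus strand) had 5.57, 8.14 and 4.71 TPM in WT libraries 1 to 3 and 7.91, 3.69 and 3.63 TPM in METTL3 KO libraries 1 to 3. The labels overlapped, because METTL3 KO library 1 lay within the WT range. The reads behind these values were 7 in each WT library and 21, 12 and 5 in METTL3 KO libraries. The log2 change was -0.32 (SE 0.45, limma adjusted p 0.617). The authors' deposited table called GSDME lower, with a mean normalized count of 55.5 and a log2 change of -0.59 (SE 0.19, adjusted p 0.0157). In that table GSDME had the larger mean count of the 2 gasdermins, also per kb of exons (6.28 against 3.22 for GSDMD), whereas in the rRNA-depleted libraries GSDMD had the higher TPM in all 6.

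The ratio of the gasdermins within a library was compared next. No scaling factor can change a ratio of TPM, but a trend of level on GC content can. The difference on the log2(TPM + 1) scale is not fully free of scaling either. GSDMD was 18.1, 14.7 and 26.1 times GSDME in TPM in WT libraries 1 to 3, and 2.82, 5.36 and 8.0 times in METTL3 KO libraries 1 to 3. The labels did not overlap. The within-library difference GSDME minus GSDMD on the log2(TPM + 1) scale went from -4.04 ± 0.37 (SD, n = 3) to -2.20 ± 0.71 (SD, n = 2), a shift of 1.84. This shift equals the difference between the log2 changes of the 2 genes given above, so it is no separate result. An exact permutation test, two-sided, gave p = 0.2, which 3 against 2 samples cannot go below, and 0.4 after adjustment over the 4 pairs compared. The GC content of the longest transcript is 64.8% for GSDMD and 46.6% for GSDME, in deciles with median log2 changes of -0.41 and 0.65. With the GC trend removed, the log2 change was -1.32 for GSDMD and -0.53 for GSDME. The part of GC content in the shift of the pair was not tested.

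CASP2, the initiator activated on the PIDDosome, rose. CASP2 (ENSG00000106144, chromosome 7, 143288215 to 143307696, plus strand) stood at 16.8, 20.6 and 26.1 TPM in WT libraries 1 to 3 and at 50.99, 56.7 and 38.7 TPM in METTL3 KO libraries 1 to 3. All METTL3 KO libraries were above all WT libraries, from 16 to 35 reads in WT and 48 to 166 in METTL3 KO. CASP2 averaged 21.2 ± 4.70 TPM (SD, n = 3) in WT and 46.2 ± 10.7 TPM (SD, n = 2) in METTL3 KO, which is 2.18-fold more.

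On the log2(TPM + 1) scale CASP2 rose by 1.09 (SE 0.28, limma adjusted p 0.0322), or by 0.68 relative to the median of all genes tested. Its longest transcript has a GC content of 43.6%, in a decile whose 1467 genes had a median log2 change of 0.80, with 30.1% called higher. With the GC trend removed, CASP2 was 0.23 above the median of all genes. The call of CASP2 is close to the threshold. It ended without WT library 1 (adjusted p 0.0674), WT library 2 (0.0632) or METTL3 KO library 3 (0.109), under median ratio, 75th percentile and quantile scaling (0.0855, 0.0510 and 0.0551), and with the GC trend removed, where the log2 change was 0.71 (0.109). The RN7SL pseudogenes RN7SL535P and RN7SL481P lie within CASP2 on the same strand. RN7SL535P was listed at 47.9 to 175 TPM in WT and 11.3 to 21.8 TPM in METTL3 KO libraries, the opposite order to CASP2. RN7SL481P overlapped between the labels, at 20.02 to 138 TPM in WT and 0 to 43.2 TPM in METTL3 KO libraries. Both pseudogenes rest on few reads in each library, so their order between the labels carries a large counting error and was not tested. The authors' deposited table gave CASP2 a log2 change of 0.28 (SE 0.14, adjusted p 0.174), with a mean normalized count of 131.

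CASP9, the initiator of the apoptosome, had the opposite sign. CASP9 (ENSG00000132906, chromosome 1, 15490832 to 15526534, minus strand) stood at 9.41, 5.89 and 5.68 TPM in WT libraries 1 to 3 and at 3.82, 1.04 and 2.45 TPM in METTL3 KO libraries 1 to 3. The labels did not overlap, but each value rests on 2 to 7 reads. The counting intervals of single libraries overlapped widely between the labels. Summed over each label and scaled for depth, the CASP9 reads put METTL3 KO at 0.330 times WT. The exact 95% interval of this ratio was 0.133 to 0.785 and covers counting error only. The log2 change was -1.19 (SE 0.44, limma adjusted p 0.0908), which did not pass. It passed with quantile normalization (-2.05, adjusted p 0.0251) and with voom on recovered reads (-1.81, adjusted p 0.00744). It was smaller with the GC trend removed (-0.78, adjusted p 0.244), with a pseudocount of 5 (-0.68) and without METTL3 KO library 2 (-0.94, adjusted p 0.171). In the authors' deposited table CASP9 had a log2 change of -0.47 (SE 0.34, adjusted p 0.375).

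CASP2 and CASP9 thus lay further apart in METTL3 KO libraries. CASP2 was 1.78, 3.50 and 4.599 times CASP9 in TPM in WT libraries 1 to 3 and 13.4, 54.5 and 15.8 times in METTL3 KO libraries 1 to 3. The within-library difference on the log2(TPM + 1) scale went from 1.48 ± 0.64 (SD, n = 3) to 3.76 ± 0.34 (SD, n = 2), a shift of 2.28. The exact permutation test again gave 0.2 and, adjusted over the 4 pairs, 0.4. Here too the shift equals the difference between the 2 log2 changes given above and is no separate result. CASP9 rested on 2 to 6 reads in those METTL3 KO libraries. The GC deciles of CASP2 and CASP9 had median log2 changes of 0.80 and 0.16. With the GC trend removed, the log2 change was 0.71 for CASP2 and -0.78 for CASP9, and the pair was not tested that way.

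CASP6, the executioner that cuts lamin A, did not pass in either library type. CASP6 (ENSG00000138794, chromosome 4, 109688622 to 109703583, minus strand) stood at 3.65, 26.6 and 6.16 TPM in WT libraries 1 to 3, from 1, 5 and 2 reads. In METTL3 KO libraries 1 to 3 it stood at 17.3, 12.7 and 19.9 TPM, from 10, 9 and 6 reads. WT library 2 was above every METTL3 KO library and the other WT libraries were below them. The log2 change was 0.91 (SE 0.81, limma adjusted p 0.424), which became 1.66 without WT library 2 (adjusted p 0.0446) and 0.38 without WT library 1 (adjusted p 0.724). CASP6 overlaps MCUB on the other strand, and whether the counting used strand is not given in the sources used here. The authors' deposited table gave CASP6 a log2 change of -0.26 (SE 0.20, adjusted p 0.434).

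**Figure D2:**
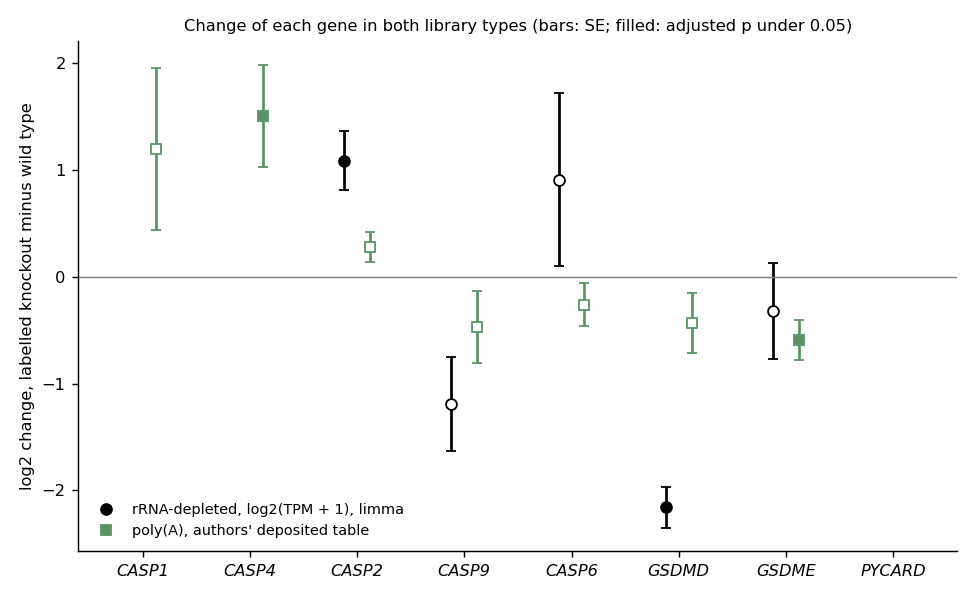
Log2 change of each gene, labelled METTL3 KO minus WT, with its SE, in the rRNA-depleted libraries (circles, log2(TPM + 1), limma) and in the authors' deposited poly(A) table (squares). Filled symbols have an adjusted p under 0.05. GSDMD is lowest among the circles at -2.16 and CASP4 highest among the squares at 1.51, genes with no test have no symbol, and PYCARD has none in either type.

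The inflammatory caspases were at the limit of what the rRNA-depleted libraries could show. CASP4 (ENSG00000196954, chromosome 11, 104942866 to 104969436, minus strand) was listed at 0.976, 0 and 0 TPM in WT libraries 1 to 3 and at 3.23, 2.26 and 0.89 TPM in METTL3 KO libraries 1 to 3. These values are 1 read in all of WT and 7, 6 and 1 reads in METTL3 KO. METTL3 KO libraries 1 and 2 were the high ones, and library 3 was below WT library 1. With reads summed over each label and scaled for depth, METTL3 KO was 6.93 times WT, with an exact 95% interval of 1.05 to 293 that covers counting error only. The authors' deposited table called CASP4 higher, with a log2 change of 1.51 (SE 0.48, adjusted p 0.0123) at a mean normalized count of 9.11.

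CASP1 (ENSG00000137752, chromosome 11, 105025443 to 105035250, minus strand), which also matures interleukin-1 beta, was listed at 0 TPM in all 3 WT libraries. In METTL3 KO libraries 1 to 3 it was listed at 2.72, 2.96 and 0 TPM, from 3, 4 and 0 reads. Where 0 reads are seen up to 3 may be missed, and for CASP1 3 reads equal 5.75, 8.395 and 4.86 TPM in WT libraries 1 to 3, above every METTL3 KO value. A difference was therefore not detectable at this depth. The authors' deposited table gave CASP1 a log2 change of 1.20 (SE 0.76, adjusted p 0.297) at a mean normalized count of 3.05. CASP1 and CASP4 lie in a cluster of related genes on chromosome 11, and how reads shared with CASP5, CARD16 and CARD17P were counted is not given in the sources used here. CASP5, CARD16 and CARD17P were listed at 0 in all 6 rRNA-depleted libraries. The within-library difference CASP4 minus CASP1 shifted by 0.11 (two-sided exact permutation p 0.8).

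PYCARD (ENSG00000103490, chromosome 16, 31201485 to 31203450, minus strand), the adaptor that links inflammasome sensors to CASP1, was listed at 4.26, 0 and 18.0 TPM in WT libraries 1 to 3. It was listed at 0 in all 3 METTL3 KO libraries, where 3 reads equal 6.05, 4.95 and 11.7 TPM. The WT values are 1, 0 and 5 reads, so WT library 3 alone was above those limits. Summed over each label and scaled for depth, the PYCARD reads put METTL3 KO at 0 times WT. The exact 95% interval of this ratio reached up to 0.420 and covers counting error only. The authors' deposited table listed PYCARD at a mean normalized count of 0.0865 and gave no adjusted p. Relative to CASP1, PYCARD shifted by -3.19 on the log2(TPM + 1) scale (two-sided exact permutation p 0.4). The pseudocount sets the size of this shift, which was -6.76 with 0.1 and -1.36 with 5, and it was -4.29 to -2.17 without single libraries. PYCARD was thus near or under detection in both library types.

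The order of levels in TPM changed between the labels. In WT it ran GSDMD (114), CASP2 (21.2), CASP6 (12.15), PYCARD (7.43), CASP9 (6.99), GSDME (6.14), CASP4 (0.325) and CASP1 (0), given as means. The ranges over libraries did not overlap between GSDMD and CASP2, nor between GSDME and CASP4, and each other pair of neighbours overlapped. In METTL3 KO the order was CASP2 (46.2), GSDMD (25.04), CASP6 (17.5), GSDME (4.72), CASP9 (2.44), CASP4 (1.82), CASP1 (1.42) and PYCARD (0). There, CASP2 stood apart from GSDMD and CASP6 from GSDME, with overlap between all other neighbours. Mean normalized counts per kb of exons in the authors' deposited table put CASP6 first (19.3), then CASP2 (16.4), GSDME (6.28), GSDMD (3.22), CASP9 (2.12), CASP4 (1.25), CASP1 (0.825) and PYCARD (0.0521). GSDMD was first in WT rRNA-depleted libraries and behind CASP6, CASP2 and GSDME in the authors' deposited table, which pools both labels.

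Profiles nearest to the called genes were taken as the smallest Euclidean distance of centred log2(TPM + 1) over the 6 rRNA-depleted libraries, among 12113 other genes with a mean of at least 5 TPM. For GSDMD they were CLN8 (distance 0.22), FSTL3 (0.40) and RANGAP1 (0.41), against a median distance of 3.72. CLN8 stood at 49.8, 48.5 and 50.9 TPM in WT libraries 1 to 3 and at 9.09, 8.10 and 12.7 TPM in METTL3 KO libraries 1 to 3. For CASP2 they were BCL2L2 (0.20), LPP (0.22) and PMPCB (0.22), against a median of 1.84. BCL2L2 stood at 10.2, 14.8 and 18.6 TPM in WT libraries and at 33.6, 39.2 and 27.8 TPM in METTL3 KO libraries. These distances describe likeness over 6 libraries that share their label, and are no test.

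The partners of these genes were taken from a list of 58 other caspases, gasdermins, sensors, inhibitors and substrates, all of which were found in the tables. In the rRNA-depleted libraries 35 were tested, of which 9 rose, 6 fell and 20 did not pass, with a median log2 change of 0.03 against 0.41 over all genes. With median ratio scaling the split was 4 higher and 11 lower. The authors' deposited table gave 40 of them an adjusted p, with 9 higher, 4 lower and 27 not passing, and a median of 0.00 against 0.02 over all genes. The shares of the list called were 42.9% in the rRNA-depleted libraries, against 35.3% of all genes, and 32.5% in the authors' deposited table, against 19.9%. Of the list 22.5% were called higher in the authors' deposited table, against 9.55% of all genes, and no test of these shares was made. There were 7 genes that passed in both types, of 35 tested in both. This is 7 of 15 and 7 of 13 calls, and 2 of the 7 had opposite signs. Of all 12498 genes tested in both, 1327 passed in both (10.6%), 434 of them with opposite signs. The calls over all genes were 5220 in the rRNA-depleted libraries and 2782 in the authors' deposited table. These shares were not tested either.

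**Figure D3:**
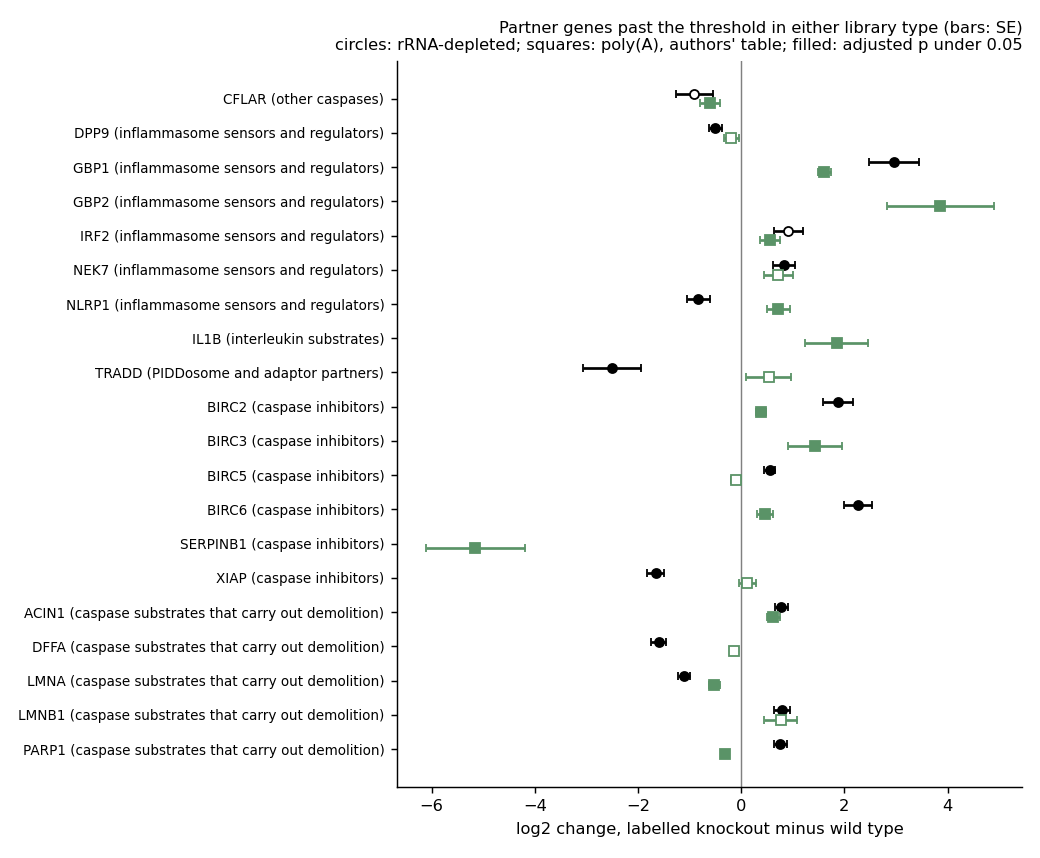
Log2 change, labelled METTL3 KO minus WT, with its SE, of 20 of the partner genes that passed in either library type, ordered by role. Circles are the rRNA-depleted libraries (limma), squares the authors' deposited poly(A) table, filled where the adjusted p is under 0.05; GBP1, BIRC2 and BIRC6 are filled and above 0 in both, while NLRP1 and PARP1 are filled on opposite sides of 0.

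Among the other caspases, CASP8, the initiator at death receptors, had a log2 change of -0.49 in the rRNA-depleted libraries (limma adjusted p 0.453) and did not pass. CFLAR, which restrains CASP8, was called lower in the authors' deposited table (-0.60, adjusted p 0.0101) and had -0.91 in the rRNA-depleted libraries (limma adjusted p 0.108). CFLAR passed there with median ratio scaling (-1.24, adjusted p 0.0449), quantile normalization (-1.30, 0.0341), the GC trend removed (-1.27, 0.0451) and voom (-1.08, 3.81e-05). Of the other gasdermins and pore factors none of 3 tested passed, and GSDMA and GSDMC were listed at 0 in all 6 libraries.

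Among inflammasome sensors and regulators 2 rose and 2 fell of 7 tested in the rRNA-depleted libraries, beside 35.3% of all genes called. GBP1, an interferon-induced GTPase that helps CASP4 reach bacterial lipopolysaccharide, rose by 2.96 on the log2 scale (SE 0.48, limma adjusted p 0.00915). It went from 1.42, 4.15 and 3.60 TPM in WT to 33.6, 28.0 and 27.2 TPM in METTL3 KO libraries 1 to 3. The WT values are 1 to 3 reads, and the call ended without METTL3 KO library 3 (adjusted p 0.0911). The authors' deposited table also had GBP1 higher (1.61, adjusted p 6.46e-31), and called GBP2 (3.86), NLRP1 (0.72) and IRF2 (0.56) higher. IRF2, a transcription factor known to drive GSDMD, had 0.91 in the rRNA-depleted libraries (limma adjusted p 0.0574). Its part in the change of GSDMD was not tested. IRF2 passed there without METTL3 KO library 1 (1.08, adjusted p 0.0373), with 6 separate samples (0.86, 0.0469) and with a filter of 5 TPM (0.91, 0.0484). It did not pass with median ratio, 75th percentile or quantile scaling (0.52 to 0.73), nor with voom (0.57, adjusted p 0.299).

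NLRP1, a sensor that signals through PYCARD and CASP1, fell by 0.83 in the rRNA-depleted libraries (SE 0.22, limma adjusted p 0.0371), opposite to its sign in the authors' deposited table. NEK7, the partner of NLRP3, rose by 0.83 (adjusted p 0.0324), and DPP9, which restrains NLRP1, fell by 0.50 (adjusted p 0.0361) in the same fit. With the GC trend removed these became -0.31 for NLRP1, -0.01 for NEK7 and 0.07 for DPP9, with none called. These 3 calls also ended under several left-out libraries, NLRP1 without any WT library or METTL3 KO library 1 or 3, NEK7 without WT library 1 or 3 or METTL3 KO library 3, and DPP9 without any WT library or METTL3 KO library 3. NEK7 was also not called with median ratio, 75th percentile or quantile scaling (0.49 to 0.64). NLRP3 did not pass (2.01, limma adjusted p 0.115), though it did with voom (1.5, adjusted p 0.0282) and with the replicate block (1.93, adjusted p 0.0429), with 0 to 3 reads in WT and 8 to 16 in METTL3 KO libraries. Of the interleukins that CASP1 matures, IL1B was called higher in the authors' deposited table (1.85, adjusted p 0.0165) and listed at 0 in all 6 rRNA-depleted libraries. IL18 did not pass in the authors' deposited table (-1.05, adjusted p 0.191) and held at most 3 reads in an rRNA-depleted library.

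Caspase inhibitors held 3 that rose and 1 that fell of 4 tested in the rRNA-depleted libraries, where 22.9% of all genes were called higher and 12.4% lower. XIAP, which blocks CASP9 directly, fell from 102, 83.7 and 96.2 TPM in WT to 31.9, 29.4 and 27.2 TPM in METTL3 KO libraries 1 to 3. Its log2 change was -1.66 (SE 0.16, limma adjusted p 0.00243), and the call held under all 17 alternatives. The authors' deposited table gave XIAP 0.12 (SE 0.17, adjusted p 0.679). The ubiquitin ligases BIRC2 and BIRC6 rose by 1.87 and 2.27 in the rRNA-depleted libraries (limma adjusted p 0.00807 and 0.00415), the latter not called without METTL3 KO library 3 (0.0595). Both were also higher in the authors' deposited table (0.38 and 0.46, adjusted p 0.00246 and 0.0249). BIRC5, known for its role in mitosis, rose by 0.55 (limma adjusted p 0.0164). The call ended with median ratio (0.20, adjusted p 0.189) and 75th percentile scaling (0.36, adjusted p 0.0524). In the authors' deposited table BIRC5 had the opposite sign and was not called (-0.11, adjusted p 0.408). The authors' deposited table called BIRC3 higher (1.43, adjusted p 0.0396) and SERPINB1, a serpin, lower (-5.16, adjusted p 2.21e-06), from a mean normalized count of 4.87.

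Of the scaffolds that activate the initiators, none of 4 apoptosome and mitochondrial factors passed in either type as fitted. APAF1, the apoptosome scaffold, had a log2 change of -0.28 in the rRNA-depleted libraries (limma adjusted p 0.325) and 0.37 in the authors' deposited table (adjusted p 0.343). APAF1 passed in the rRNA-depleted libraries with the GC trend removed (-0.77, limma adjusted p 0.0301) and with voom (-0.52, 0.0380). Among 4 PIDDosome and adaptor partners 1 was called lower in the rRNA-depleted libraries, as were 12.4% of all genes. This was TRADD, an adaptor of the tumour necrosis factor receptor, which fell by 2.50 (limma adjusted p 0.0230). That call ended without WT library 1 (0.0641) or 3 (0.0599), without METTL3 KO library 3 (0.173) and with the GC trend removed (-1.65, adjusted p 0.1004). In the authors' deposited table TRADD had the opposite sign and was not called (0.53, adjusted p 0.450). PIDD1, the core of the PIDDosome, had -0.65 in the rRNA-depleted libraries (limma adjusted p 0.0972) and did not pass.

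Caspase substrates that take part in dismantling the cell held 3 that rose and 2 that fell of 9 tested, where 35.3% of all genes were called. DFFA, the inhibitor of the nuclease DFFB, fell from 279, 245 and 319 TPM in WT to 81.5, 88.1 and 98.5 TPM in METTL3 KO libraries 1 to 3 (log2 change -1.60, SE 0.15, limma adjusted p 0.00249). The authors' deposited table gave DFFA -0.14 (adjusted p 0.271). LMNA, a nuclear lamin cut by CASP6, fell in both, with -1.11 in the rRNA-depleted libraries (limma adjusted p 0.00361) and -0.52 in the authors' deposited table (adjusted p 2.10e-06). LMNA was -0.46 with the GC trend removed, still called. ACIN1, which takes part in chromatin condensation, rose in both (0.78, limma adjusted p 0.0105, and 0.62 in the authors' deposited table, adjusted p 3.08e-05), though not without METTL3 KO library 3 (0.0616). PARP1, a DNA repair enzyme, rose by 0.76 in the rRNA-depleted libraries (limma adjusted p 0.0105) and was lower in the authors' deposited table (-0.32, adjusted p 7.90e-06). LMNB1 rose by 0.79 in the former (limma adjusted p 0.0148). With median ratio scaling, which moved the median of all genes from 0.41 to 0.11, ACIN1, PARP1 and LMNB1 were no longer called, at 0.43, 0.41 and 0.44.

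**Figure D4:**
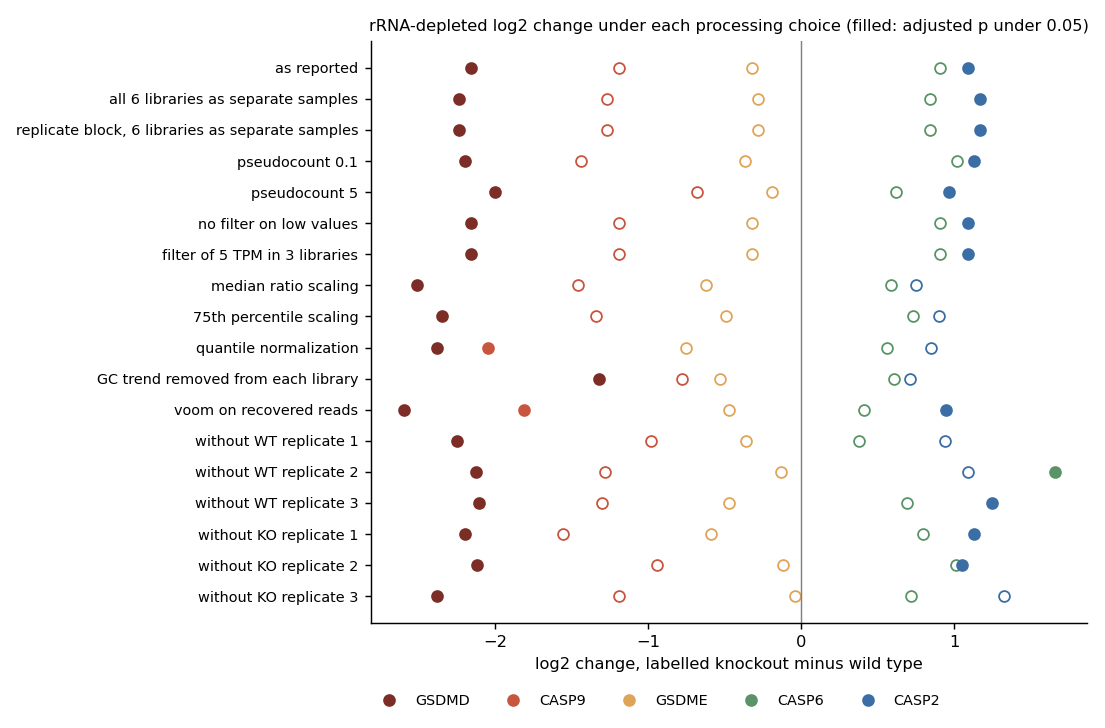
Log2 change in the rRNA-depleted libraries, labelled METTL3 KO minus WT, of the 5 tested genes under each processing choice, 1 row per choice. Filled symbols have an adjusted p under 0.05; GSDMD is filled in every row, between -2.60 and -1.32, CASP2 is open in 7 rows, and no gene crosses 0.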

How the data were processed

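Reads of the series were processed with Trimmomatic, STAR and DESeq2 on hg38, per the submitters' processing notes, which give no roles or versions. The counting tool, annotation and strand setting are not given in the sources used here. Values of the rRNA-depleted libraries were deposited by the authors as TPM. The poly(A) table holds, per the file headers, each gene's mean normalized count (a signal over the pooled libraries), log2 fold change and SE, Wald statistic (a score), p-value and its adjusted form. The deposited table names no numerator; positive was read as higher in METTL3 KO, since 91.5% of 177 genes called with a log2 change beyond 1 in size in both types then had the same sign.

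Reads were recovered from TPM and GENCODE 29 exon lengths (93.8% of identifiers matched): 90.9% of values above 0 were whole to within 0.02 reads. For GSDME the length was rescaled by 1.0055 to give whole reads. Libraries were compared by chi-square over genes whole in both with at least 10 reads; over all genes with a length METTL3 KO libraries 1 and 2 had 1.07 per degree of freedom (p = 1.99e-07), and the fit with 6 separate samples is among the alternatives. log2(TPM + 1) was fitted with limma 3.58.1 in R 4.3.3 (trend). Genes reaching 1 TPM in 3 libraries were kept, and Benjamini-Hochberg adjustment ran over all of them; it was tested on simulated data, and a gene that did not pass is not shown to be unchanged. This scale understates changes of low genes. Exact tests used scipy 1.17.1. No molecular identifiers are mentioned, so intervals and limits of 3 reads describe counting error alone.

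The 8 genes, the partner and marker lists and the tests were chosen with earlier results of these data known. Genes are named by rule: METTL3, the 8, partners past the threshold in either type, 8 fixed partners, and the 3 nearest profiles of each called gene. Partners named otherwise (DFFB, GSDMA, GSDMC, CASP5, CARD16, CARD17P, PIDD1), the overlapping genes and the marker genes were named for context after their values were seen. Some partner genes are counted in the list but not reported here by name or drawn. All per-sample columns were used.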

Additional observations from a re-analysis of the deposited data

How the results depend on the processing

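Of the 2 calls among the 8 genes in the rRNA-depleted libraries, 1 was left with median ratio scaling, 75th percentile scaling, the GC trend removed and an adjusted p of 0.01, in each case GSDMD. Leaving out single libraries gave 1 to 2 calls. Without WT library 2 the calls were GSDMD and CASP6 (1.66, limma adjusted p 0.0446), and CASP2 was not called (limma adjusted p 0.0632). With quantile normalization the 2 calls were GSDMD and CASP9, and voom gave 3, GSDMD, CASP2 and CASP9. GSDMD passed under all 17 alternatives to its value, CASP2 lost its call in 7, and no sign of the 5 tested genes changed. Calls among partners went from 15 to 6 at an adjusted p of 0.01 and were 7 to 15 without single libraries. Over all genes 5220 calls became 2242 at 0.01 and 1663 to 5185 without single libraries, the fewest without METTL3 KO library 3, where 1 sample is left in that group and is assumed to vary like the others. NEK7 (-0.01) and DPP9 (0.07) changed sign with the GC trend removed. METTL3 passed with 6 separate samples (0.46, adjusted p 0.0486). The CASP4 minus CASP1 shift of 0.11 reversed to -0.05 with 6 separate samples and ranged from -0.36 to 0.44 without single libraries (-0.05 without WT library 2 or 3, -0.01 without METTL3 KO library 1, -0.36 without METTL3 KO library 3). In the authors' deposited table, an adjusted p of 0.01 left 0 of the 8 genes (2 have an unadjusted p under 0.05, CASP4 and GSDME) and 7 of 13 partners.

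Replicate numbers are shared by the labels, and deviations of same-numbered libraries correlated at 0.02, -0.02 and 0.008. The deviations of WT library 1 and METTL3 KO library 2 correlated at 0.025. Libraries of a label differed by 1.02 to 1.54 per degree of freedom in the chi-square over genes whole in both, where 1 is counting error alone. Deviations this close to counting error cannot decide whether the numbers pair the libraries. With the replicate block 6037 genes were called, against 6880 without it for the same 6 libraries, with 2 of the 8 genes and GSDMD at -2.24. Scaling moved the share of calls that were higher from 64.8% to 48.6% with median ratio scaling and 52.1% with quantile normalization. Depth limits CASP1, CASP4 and PYCARD, and leaves CASP6 and CASP9 with at most 10 reads a library.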
